A study of Mus musculus with 8 samples.

Results

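The mucosal pentraxin genes Mptx1 and Mptx2, 2 of the 55418 gene symbols in the deposited table, were followed by symbol through the distal colon of 8 mice. Mptx1 was chosen by its measured counts, which nearly vanished after colitis, so its change with treatment is given as a description and without a test; Mptx2 is its close relative. RNA had been sequenced from C57BL/6 mice aged 8 to 10 weeks, in 4 groups of 2 mice. The NAIL-ΔNFκB mice (ΔNFκB below) and the wild-type (WT) mice each had a group that drank 3% dextran sulfate sodium (DSS), which damages the colon epithelium, for 4 days and then plain water for 4 days, and each had an untreated group. NAIL is known as a long noncoding RNA; neither the altered bases of the ΔNFκB line, nor its founders, nor whether the mice were littermates is stated in the labels. Gm16685, taken from general knowledge to be mouse NAIL, had 55.1 and 86 reads in ΔNFκB DSS mice, 57 and 126 in WT DSS mice, 3 and 4 in untreated ΔNFκB mice and 3 and 20 in untreated WT mice. Such totals per gene cannot tell if some of the locus is gone.

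Pentraxins are secreted pattern recognition proteins that assemble into rings and bind phosphocholine and related ligands on microbes and dying cells in a calcium-dependent way. The short pentraxins C-reactive protein and serum amyloid P are best known as plasma proteins that recruit complement through C1q and engage Fcγ receptors. Mucosal pentraxin was described in the rat as a transcript of the large bowel mucosa that responds to diet, and mouse Mptx2 is known as a transcript of Paneth cells, the antimicrobial secretory cells of the small intestine.

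Mptx1 (ENSMUSG00000026531) lies on the plus strand of mouse chromosome 1 at chr1:174330518-174332873, and Mptx2 (ENSMUSG00000079180) on the minus strand at chr1:173274382-173277777, both in the mm10 build. The genes are 1053 kb apart, with 25 protein-coding genes wholly between them. Each has 2 exons, and the coding sequence is divided in the same way. There are 64 coding bases in exon 1 and 593 in exon 2 before the stop codon. Their coding sequences are 660 bases long with the stop codon and were 92.0% identical, with 53 mismatches and no gap. The most alike and the least alike stretches of 150 coding bases are shown because they set how well reads of 150 bases can be assigned to either gene; capitals mark the bases that differ between the genes. Coding bases 1 to 150 hold 1 difference, and coding bases 418 to 567 hold 20.
Mptx1 coding bases 1 to 150: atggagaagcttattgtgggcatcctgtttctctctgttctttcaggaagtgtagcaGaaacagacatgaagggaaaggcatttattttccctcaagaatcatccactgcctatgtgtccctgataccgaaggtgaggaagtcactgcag
Mptx2 coding bases 1 to 150: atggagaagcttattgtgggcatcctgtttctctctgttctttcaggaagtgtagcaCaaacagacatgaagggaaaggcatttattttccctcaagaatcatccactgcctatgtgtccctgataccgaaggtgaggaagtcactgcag
Mptx1 coding bases 418 to 567: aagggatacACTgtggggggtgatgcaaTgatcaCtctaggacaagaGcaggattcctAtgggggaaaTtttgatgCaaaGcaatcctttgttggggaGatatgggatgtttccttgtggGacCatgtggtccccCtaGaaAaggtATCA
Mptx2 coding bases 418 to 567: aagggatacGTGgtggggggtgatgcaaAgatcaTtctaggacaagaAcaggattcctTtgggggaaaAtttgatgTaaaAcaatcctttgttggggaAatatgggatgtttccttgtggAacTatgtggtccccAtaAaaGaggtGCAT
Among all 650 windows of 150 bases along the aligned transcripts, 0 were free of differences, and the median window held 14. Of the 764 stretches of 31 bases in the Mptx2 transcript, 192 (25.1%) also occurred in Mptx1, while 0 transcripts of any other gene shared such a stretch with Mptx1. How the authors' counting treated reads that match both genes is not given in the sources used here, so counts of the rarer gene, Mptx2, are uncertain.

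The bases before each transcript start are shown because the likeness of the pair extends beyond the coding sequence. The sequences are from RefSeq, build GRCm38.p6, chr1:174330268-174330517 on the plus strand for Mptx1 and chr1:173277778-173278006 on the minus strand for Mptx2. Capitals mark the TATA core TATAA, on either strand.
Mptx1 promoter: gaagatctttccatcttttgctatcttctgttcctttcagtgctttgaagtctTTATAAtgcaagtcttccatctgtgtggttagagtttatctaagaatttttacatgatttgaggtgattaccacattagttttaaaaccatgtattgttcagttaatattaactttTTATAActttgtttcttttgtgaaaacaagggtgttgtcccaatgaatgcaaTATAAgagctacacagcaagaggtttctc
Mptx2 promoter: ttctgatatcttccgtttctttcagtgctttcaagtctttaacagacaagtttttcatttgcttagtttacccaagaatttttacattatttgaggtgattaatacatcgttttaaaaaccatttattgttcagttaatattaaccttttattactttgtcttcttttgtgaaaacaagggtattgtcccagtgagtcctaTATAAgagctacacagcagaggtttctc
The promoters were 86.9% identical over 222 aligned bases. TATAA, searched on both strands, was in 23.5% of 27025 RefSeq promoters, each read over the 250 bases before the start, and the match nearest the start began 29 bases before it in Mptx1 and 28 bases before it in Mptx2. The NF-κB pattern of GGG, any 5 bases and CC, found in 45.4% of promoters on either strand, the STAT pattern TTCNNNGAA, in 7.18%, and the C/EBP pattern TTGCNNAA, in 9.55%, had 0 matches in both windows, as did the CDX core TTTATG, in 11.1%. The FOXA pattern TGTTTNC, in 17.9% of promoters, had 1 match in each window, and the HNF4 pattern CAAAG, in 48.8%, had 2 in Mptx1 and 1 in Mptx2. All were searched on both strands. These matches are descriptions of letters and not of bound sites.

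The libraries held 9229861 to 16935961 reads in genes, and the 2 libraries of a group correlated at r 0.974 to 0.981 across genes, which are not independent replicates. Levels below are CPM, reads normalised to library size and scaled with TMM factors; 3 reads in a library stood for 0.201 to 0.309 CPM. By Y-linked transcripts all 4 DSS mice were female, both untreated ΔNFκB mice were male, and of the untreated WT mice replicate 1 was female and replicate 2 male. DSS and sex therefore cannot be told apart within ΔNFκB mice, whereas within WT mice a female can be set against females. The tissue label was checked with 7 measured distal hindgut genes (among them Hoxb13), which summed to 360 to 783 CPM over the libraries. Of 14 Paneth cell markers 10 had 0 reads in every library, including all 9 defensin genes on the list; Lyz1, Mmp7, Pla2g2a and Itln1 had reads. In whole tissue, fewer cells of a type and less RNA per cell cannot be told apart.

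Mptx1 was among the most abundant transcripts of the untreated distal colon. It had 433 and 398 CPM in untreated ΔNFκB mice, from 5505 and 4905 reads, against 733 and 696 CPM in untreated WT mice, from 9192.5 and 10392.83 reads. Both untreated ΔNFκB mice were below both untreated WT mice, but the share of all genes that separate in this way was not counted. The fitted difference, given below, did not pass the test. Per kilobase of exon, Mptx1 ranked 31st and 41st among 22028 protein-coding genes in untreated ΔNFκB mice, at 542 and 499 CPM per kb, and 21st and 27th in untreated WT mice, at 917 and 871 CPM per kb. The first of these WT values, 733 CPM, is from the female and the second, 696 CPM, from the male.

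After DSS the transcript nearly disappeared, further in WT than in ΔNFκB mice. Mptx1 had 18 and 7.61 CPM in ΔNFκB DSS mice, from 176 and 74 reads, against 0.578 and 0.274 CPM in WT DSS mice, from 6 and 3 reads. The order of the 4 groups by mean was WT DSS (0.426 ± 0.215 CPM), ΔNFκB DSS (12.8 ± 7.35 CPM), untreated ΔNFκB (416 ± 24.8 CPM) and untreated WT (714 ± 26 CPM, SD with n = 2 each). Per kilobase Mptx1 fell to ranks 1724 and 4184 of 22028 in ΔNFκB DSS mice and to ranks 12248 and 13446 in WT DSS mice.

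**Figure D1:**
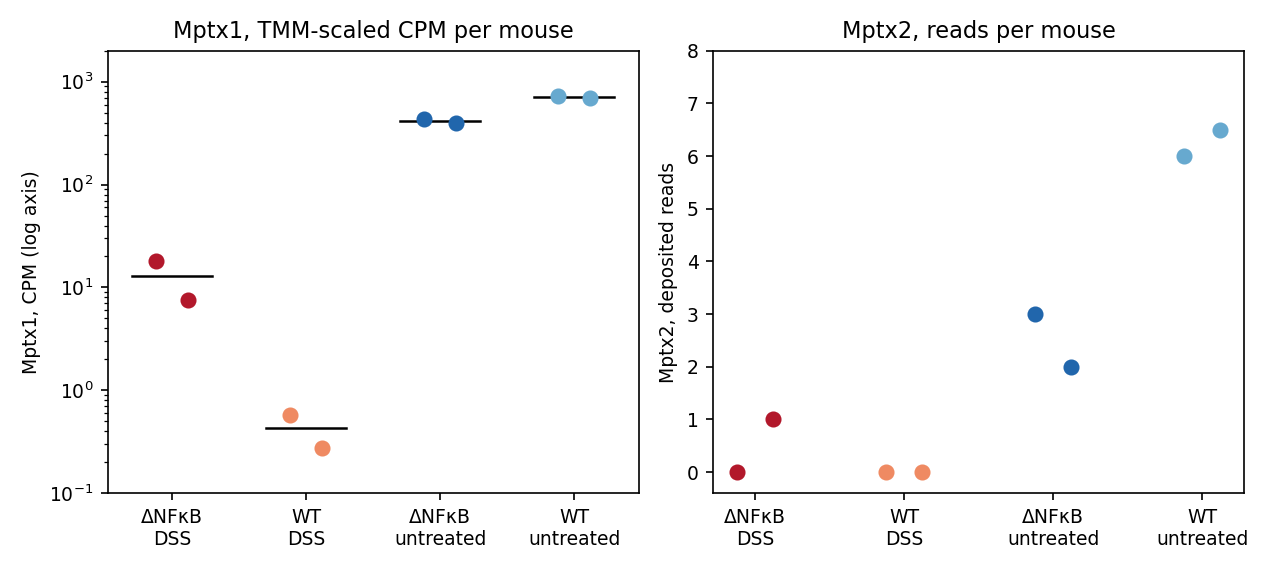
Left, Mptx1 in CPM on a log axis; right, Mptx2 in deposited reads; each point is 1 mouse and each bar on the left is a group mean. The ΔNFκB DSS mice lie at 18 and 7.61 CPM of Mptx1, between the WT DSS mice (0.578 and 0.274 CPM) and both untreated groups, and Mptx2 has at most 6.5 reads in any mouse.

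Mptx1 fell with DSS by 32.4-fold in ΔNFκB mice (log2 fold change -5.02 ± 0.34, SE of the edgeR fit) and by 1650-fold in WT mice (-10.69 ± 0.5). These are the values that chose the gene. Among the 17522 genes fitted they were the 64th lowest log2 fold change in ΔNFκB mice, where 35.4% of genes passed the test (16.2% higher and 19.2% lower), and the 3rd lowest in WT mice, where 36.1% did (17.3% higher and 18.8% lower). From the summed reads alone the ratio of untreated to DSS was 32.5 (95% exact counting interval 28.6 to 36.9) in ΔNFκB mice and 1690 (889 to 3690) in WT mice, intervals that cover counting error only. The fall in WT mice rests on 9 reads after DSS, and without WT DSS replicate 1 it was -11.3. Within female WT mice the DSS libraries had 0.578 and 0.274 CPM and the untreated library 733 CPM. The DSS effects differed by 5.67 ± 0.62 log2 units between ΔNFκB and WT mice, the 6th highest of all genes, also given without a test; 17.7% of genes passed the test of this difference (8.63% higher and 9.07% lower).

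Between the genotypes after DSS, where all mice were female, the log2 fold change was 4.89 ± 0.54, a 29.6-fold higher level in ΔNFκB DSS mice than in WT DSS mice. It was the 2nd highest of 17522 log2 fold changes, in a comparison where 20% of genes were called, 8.32% higher and 11.7% lower. By summed reads, 250 in ΔNFκB DSS mice against 9 in WT DSS mice, the ratio was 30.4 (15.7 to 67.2). The DSS libraries, whose low values chose the gene, make up this comparison, so it is given as a description and without a p. The log2 fold change was 4.15 without ΔNFκB DSS replicate 1, 5.35 without ΔNFκB DSS replicate 2, and 5.5 or 4.45 when WT DSS replicate 1 or 2 was dropped.

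In untreated mice the genotype difference did not pass the test. The log2 fold change of ΔNFκB against WT was -0.78 ± 0.28, or 1.72-fold lower, with p 0.0235 and adjusted p 0.251 in the edgeR fit, in a comparison where 0.388% of genes were called (0.0399% higher and 0.348% lower). Over the alternative settings without list scaling it ran from -0.87 to -0.74 and passed in 0 of 19, with adjusted p of 0.0687 to 0.475. Scaled to the pan-epithelial list described below it was smaller, at -0.57, and scaled to the goblet list it was -0.37. The medians of all genes stood at 0.24 and 0.44 on these scales, and neither value passed the test.

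**Figure D2:**
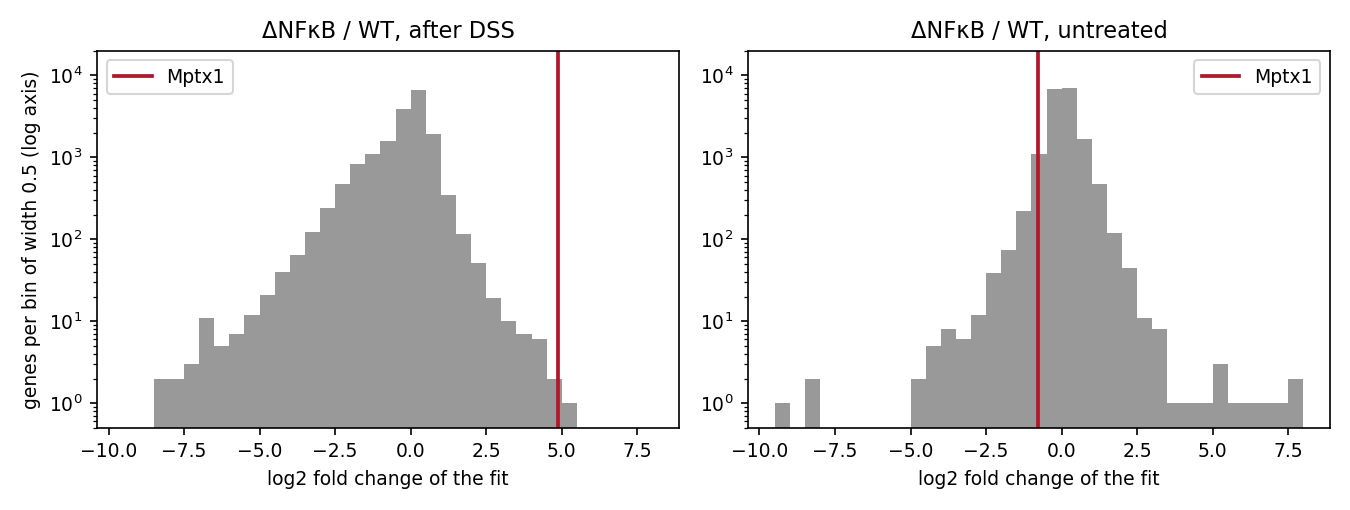
Number of genes (log axis) per bin of log2 fold change between ΔNFκB and WT mice, after DSS on the left and untreated on the right, with the value of Mptx1 as a red line. Mptx1 lies at the far right after DSS (4.89) and 634th lowest of 17522 genes in untreated mice (-0.78).

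Mptx2 was close to the limit of counting in all 8 libraries. It had 0 and 1 reads in ΔNFκB DSS mice, 0 and 0 in WT DSS mice, 3 and 2 in untreated ΔNFκB mice and 6 and 6.5 in untreated WT mice. Reads were seen in 4 of 4 untreated mice and in 1 of 4 DSS mice. Per kilobase the untreated mice had 0.297 and 0.205 CPM of Mptx2 (ΔNFκB) and 0.602 and 0.506 CPM (WT). The untreated libraries together held 0.583 Mptx2 reads per 1000 Mptx1 reads, with 0.408 to 0.653 in single libraries; whether some of these reads came from Mptx1 transcripts was not tested.

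Because of these counts Mptx2 did not pass the filter on low values and has no test in the fit, so that 1 of the 2 members was fitted. From rounded reads, WT DSS mice had 0 and untreated WT mice 12, a level 3.1-fold lower when the 0 is set to a floor of 3 reads. The exact counting interval of this fall begins lower, at 2.15-fold. In ΔNFκB mice the ratio of DSS to untreated was 0.257 (0.00543 to 2.29; 1 read against 5), and untreated ΔNFκB mice stood at 0.458 of untreated WT mice (0.126 to 1.4; 5 reads against 12). Both of these intervals include equality. After DSS both groups were under the floor, with 1 read in ΔNFκB mice and 0 in WT mice, and no ratio is given.

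The other members of the pentraxin family were near or at 0 in the distal colon. The plasma pentraxin genes Crp and Apcs had 2 reads and 0 reads over all 8 libraries, and Ptx4 had 0. Ptx3, a long pentraxin made by myeloid and stromal cells in inflammation, had 0 and 0 reads in ΔNFκB DSS mice, 10 and 29 in WT DSS mice, 0 and 0 in untreated ΔNFκB mice and 2 and 0 in untreated WT mice. Ptx3 reads were thus highest in both WT DSS mice and at 0 in all 4 ΔNFκB mice. After DSS it was 11.9-fold lower in ΔNFκB mice than in WT mice when the 0 is set to a floor of 3 reads. The exact counting interval of this ratio begins lower, at 9.22-fold. With DSS the ratio in WT mice was 25.1 (exact counting interval 6.51 to 215, 39 reads against 2). Ptx3 passed the count filter through its WT DSS reads, so both values are descriptions and no p is given. Without WT DSS replicate 2, which held 29 of the 39 reads, Ptx3 did not pass the count filter. The fitted log2 fold change with DSS in WT mice was 3.46 without WT untreated replicate 2 and 7.43 without WT untreated replicate 1.

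The neuronal pentraxins bind synaptic receptors in the brain. Nptxr, their membrane-bound relative, had 15 and 10 reads in ΔNFκB DSS mice and 34 and 31 in WT DSS mice (log2 fold change -1.25 ± 0.36, adjusted p 0.0457, edgeR), a call lost with any DSS or untreated ΔNFκB library left out (adjusted p 0.0542 to 0.244), with a replicate block (0.0585), with limma-voom (0.0605) and with DESeq2 (0.186). Nptx1 had 8 and 2 reads in ΔNFκB DSS mice, 6 and 0 in WT DSS mice, 10 and 13 in untreated ΔNFκB mice and 13 and 11 in untreated WT mice, and did not pass in any of these comparisons. Nptx2 had 6 and 2 reads in ΔNFκB DSS mice, 6 and 23 in WT DSS mice, 8 and 7 in untreated ΔNFκB mice and 4 and 10 in untreated WT mice and did not pass the filter. Of the 3 other family members fitted, Nptxr and Nptx1 did not pass lower with DSS in either genotype or higher in ΔNFκB mice after DSS. Ptx3 could not have done so, because it entered the fit through its WT DSS reads. Among all genes fitted, 19.2% were called lower with DSS in ΔNFκB mice and 18.8% in WT mice. After DSS 8.32% were called higher in ΔNFκB than in WT mice.

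Transcripts of the proteins that pentraxins work with were measured next. Of 17 fitted genes for complement components, ficolins, Fcγ receptors and other binding partners, 7 were higher and 1 lower with DSS in ΔNFκB mice (median log2 fold change 0.53, against -0.04 over all genes, of which 16.2% were called higher and 19.2% lower). In WT mice 11 were higher and 1 lower (median 1.73, against 0 over all genes, with 17.3% higher and 18.8% lower), or 7 and 0 if WT DSS replicate 2 was dropped. Fcgr2b, the inhibitory Fcγ receptor, rose with DSS by 1.39 ± 0.16 in ΔNFκB mice (adjusted p 0.000658) and by 2.2 ± 0.16 in WT mice (adjusted p 0.000139). It stood at 27.7 ± 0.26 CPM in ΔNFκB DSS mice, 45.6 ± 3.77 in WT DSS mice, 10.5 ± 2.1 in untreated ΔNFκB mice and 9.91 ± 0.189 in untreated WT mice (SD, n = 2 each). After DSS 0 of the 17 were higher and 3 lower in ΔNFκB than in WT mice: Fcgr3, an activating receptor, by -1.05 ± 0.18, Fcgr2b by -0.72 ± 0.16 and C1s1, a protease of the C1 complex, by -1.01 ± 0.28 (adjusted p 0.00779, 0.0173 and 0.0382). Over all genes 8.32% were higher and 11.7% lower. These 3 became 0 without ΔNFκB DSS replicate 2 or without WT DSS replicate 2, and 1 without ΔNFκB DSS replicate 1, and C1s1 was lost with limma-voom (0.0504). Upstream C1qa, C1qb and C1qc did not pass in either DSS comparison. In untreated mice 0 of the 17 passed, in a comparison where 0.388% of all genes were called.

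Mptx1 was set beside the epithelial cell types of the colon. Of 15 goblet cell genes fitted, the mucus and secretory genes, 5 were higher and 7 lower with DSS in ΔNFκB mice (median -0.47), where 16.2% of all genes were called higher and 19.2% lower. In WT mice 1 was higher and 12 were lower (median -1.97), where 17.3% of all genes were called higher and 18.8% lower. In ΔNFκB mice 3 were higher without ΔNFκB DSS replicate 1, and scaled to the goblet list itself, which puts the list near 0 by construction, the WT counts were 8 higher and 3 lower. Klk1, a kallikrein, fell to 69.1 ± 11.6 CPM in ΔNFκB DSS mice, against 779 ± 96.6 in untreated ΔNFκB mice, and to 18 ± 0.81 CPM in WT DSS mice, against 1050 ± 137 in untreated WT mice (log2 fold changes -3.49 ± 0.18 and -5.86 ± 0.21, adjusted p 6.11e-05 and 6.28e-06, SD with n = 2 each). Clca1, a secreted mucus protein, fell by 2.7 ± 0.26 log2 units in ΔNFκB mice and by 5.33 ± 0.29 in WT mice (adjusted p 0.000315 and 3.42e-05). Other members went the other way in ΔNFκB mice. Agr2, a disulfide isomerase needed for mucin folding, had 374 ± 11.5 CPM in untreated and 625 ± 17.7 CPM in DSS mice. Spink4 had 99.4 ± 20.7 CPM in untreated and 175 ± 41.2 CPM in DSS mice. After DSS all 15 were higher in ΔNFκB than in WT mice (median 1.37, against 0.03 over all genes), where 8.32% of all genes were called higher and 11.7% lower. Among the 15 were Ccl6, a chemokine, at 1.17 ± 0.11, Klk1 at 1.94 ± 0.18 and Agr2 at 1.37 ± 0.16 (adjusted p 0.00153, 0.00154 and 0.00267). The count was 9 without ΔNFκB DSS replicate 1 or 2 and 10 without WT DSS replicate 1. It was 11 when libraries were scaled to pan-epithelial transcripts, and 0, with 1 lower, when they were scaled to the goblet list itself.

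The general epithelial list moved less. Of 15 pan-epithelial genes, 2 were higher and 0 lower with DSS in ΔNFκB mice (median 0.06), and 0 were higher and 9 lower in WT mice (median -0.56), where 35.4% and 36.1% of all genes were called in either direction. Calls among the 2 were lost, in part or in full, with any ΔNFκB library left out, and calls among the 9 without WT DSS replicate 2. Scaled to the goblet list, 0 were lower and 15 higher in WT mice, where the median of all genes itself stood at 2.65. Hnf4a, a transcription factor of the gut epithelium, stood at 677 ± 51.7 CPM in ΔNFκB DSS mice and 336 ± 70.9 CPM in WT DSS mice (1.01 ± 0.18, adjusted p 0.00923). It was among 8 of the 15 that were higher in ΔNFκB mice after DSS, where 8.32% of all genes were called higher and 11.7% lower. Epcam, an adhesion protein of epithelia, stood at 921 ± 66.6 CPM in ΔNFκB DSS mice and 693 ± 30 CPM in WT DSS mice and did not pass (adjusted p 0.0739). Calls among the 8 were lost, in part or in full, with any DSS library left out. Scaled to the goblet list, 0 were higher and 12 lower, where the median of all genes itself stood at -1.45.

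Mptx1 was also expressed per unit of these lists, as a description. Per 100 CPM of the pan-epithelial list it had 0.155 and 0.0624 CPM in ΔNFκB DSS mice, 0.00684 and 0.00366 in WT DSS mice, 4.28 and 3.44 in untreated ΔNFκB mice and 6.46 and 4.99 in untreated WT mice. Per 100 CPM of the goblet list it had 0.158 and 0.0806 CPM in ΔNFκB DSS mice, 0.0173 and 0.00657 in WT DSS mice, 2.58 and 2.17 in untreated ΔNFκB mice and 3.66 and 2.49 in untreated WT mice. The 4 groups kept their order on the pan-epithelial scale, while on the goblet scale the untreated groups overlapped. With libraries scaled to the pan-epithelial list the genotype difference of Mptx1 after DSS was 4.33, and with the goblet list 3.4, where the medians of all genes stood at -0.55 and -1.45. These scalings were added after the data were seen. The goblet list summed to 11400 and 9450 CPM in ΔNFκB DSS mice and 3350 and 4180 in WT DSS mice, and the pan-epithelial list to 11600 and 12200 CPM in ΔNFκB DSS mice and 8460 and 7490 in WT DSS mice. The part of these list levels in the Mptx1 difference was not tested beyond the ratios above.

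**Figure D3:**
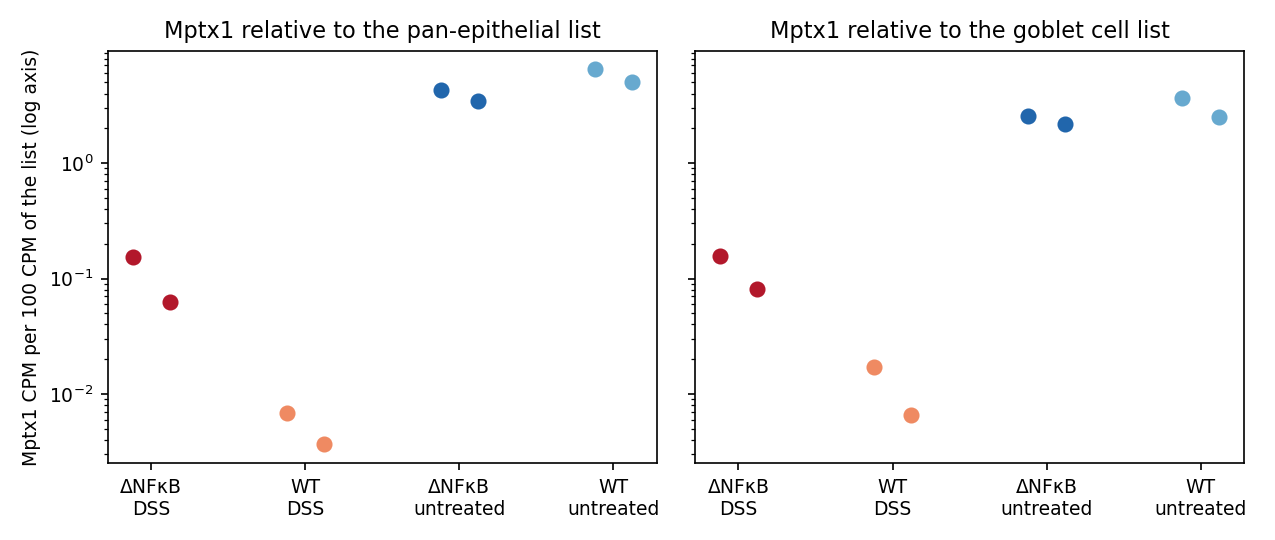
Mptx1 as CPM per 100 CPM of the pan-epithelial list (left) and of the goblet cell list (right), on a log axis, with 1 point per mouse. Per 100 CPM of goblet transcripts the ΔNFκB DSS mice lie at 0.158 and 0.0806, above the WT DSS mice at 0.0173 and 0.00657.

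Absorptive colonocyte genes, which include the water channel Aqp8 and the carbonic anhydrase Car1, fell in part in both genotypes: of 15, 1 was higher and 7 lower with DSS in ΔNFκB mice and 0 higher and 10 lower in WT mice, against 35.4% and 36.1% of all genes called. After DSS 3 of the 15 were higher and 2 lower in ΔNFκB mice, against 20% of all genes called, or 1 and 1 without ΔNFκB DSS replicate 1, ΔNFκB DSS replicate 2 or WT DSS replicate 2. Aqp8 was higher in ΔNFκB than in WT mice (4.4 ± 0.57, adjusted p 0.00332), at 133 ± 27.9 CPM in ΔNFκB DSS mice and 6.32 ± 1.83 CPM in WT DSS mice. Car1 was lower (-2.02 ± 0.2, adjusted p 0.0019), at 72.4 ± 7.31 CPM in ΔNFκB DSS mice and 294 ± 8.33 CPM in WT DSS mice. Of 8 deep crypt secretory genes, 2 were higher and 4 lower with DSS in ΔNFκB mice (median -0.92) and 0 higher and 5 lower in WT mice (median -1.28). Over all genes 16.2% were called higher and 19.2% lower in ΔNFκB mice, and 17.3% and 18.8% in WT mice. Scaled to the goblet list, the WT counts among the 8 were 7 higher and 1 lower, where the median of all genes itself stood at 2.65. Reg4, a marker of deep crypt secretory cells, fell to 26.6 ± 11.3 CPM in ΔNFκB DSS mice, against 118 ± 28.2 in untreated ΔNFκB mice, and to 17.9 ± 1.98 CPM in WT DSS mice, against 230 ± 40.6 in untreated WT mice (log2 fold changes -2.15 ± 0.29 and -3.68 ± 0.31, adjusted p 0.00117 and 0.000192). Agr2 and Spink4, also on this list, went the other way in ΔNFκB mice, from 374 and 99.4 CPM untreated to 625 and 175 CPM after DSS. Between the genotypes after DSS, where 8.32% of all genes were called higher and 11.7% lower, Reg4 did not pass (adjusted p 0.205). Of the same list, 2 of 8 were higher in ΔNFκB mice after DSS and 1 lower, Kit (0 lower without ΔNFκB DSS replicate 1 or 2 or WT DSS replicate 2). Of the 3 Paneth cell genes fitted, Pla2g2a, a secreted phospholipase, rose with DSS by 6.97 ± 0.65 in ΔNFκB mice and by 4.03 ± 0.51 in WT mice (adjusted p 0.000293 and 0.00103), and by 5.27 in WT mice without untreated WT replicate 2. Lyz1, a lysozyme, had log2 fold changes of -1.62 ± 0.63 in ΔNFκB mice and -1.86 ± 0.63 in WT mice and did not pass (adjusted p 0.0773 and 0.0503), nor did Mmp7 (-1.49 and 2.67, adjusted p 0.38 and 0.318). Of the 3, 0 passed between the genotypes, where 0.388% of all genes were called in untreated mice and 20% after DSS.

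Of 13 epithelial antimicrobial genes fitted, 10 were higher and 1 lower with DSS in ΔNFκB mice and 11 higher and 1 lower in WT mice. Over all genes 16.2% were called higher and 19.2% lower in ΔNFκB mice, and 17.3% and 18.8% in WT mice. Retnlb, a goblet cell protein that kills bacteria, had 114 ± 40.9 CPM in ΔNFκB DSS mice and 29.2 ± 21.1 CPM in WT DSS mice (1.96 ± 0.45, adjusted p 0.0207), the same direction as Mptx1 between the genotypes but the opposite one with DSS. This genotype call was lost without ΔNFκB DSS replicate 1 or 2 (adjusted p 0.098 and 0.066), and the Retnlb log2 fold change was 3.0 when WT DSS replicate 2 was dropped. Lcn2 and Reg3b were lower in ΔNFκB than in WT mice after DSS (-3.1 ± 0.49 and -2.24 ± 0.36, adjusted p 0.00571 and 0.00799). Both calls were lost when ΔNFκB DSS replicate 2 was dropped (0.0714 and 0.0519). Reg3b was also lost without ΔNFκB DSS replicate 1 (0.051) or WT DSS replicate 2 (0.0707), where Lcn2 stood at -2.28. Neutrophil markers moved with this comparison: 0 of 9 were higher and 9 lower in ΔNFκB mice after DSS (3 to 5 lower with any DSS library dropped), and the list summed to 79 and 80.2 CPM in ΔNFκB DSS mice against 338 and 444 CPM in WT DSS mice, 13.7 and 1.71 in untreated ΔNFκB mice and 2.55 and 2.61 in untreated WT mice. Over all genes 8.32% were called higher and 11.7% lower in ΔNFκB mice after DSS. The part of the neutrophil list in the Mptx1 values was not tested. All 8 smooth muscle genes fell with DSS in both genotypes, where 19.2% (ΔNFκB) and 18.8% (WT) of all genes were called lower. The smooth muscle list summed to 978 and 961 CPM in ΔNFκB DSS mice against 1400 and 1100 CPM in WT DSS mice.

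**Figure D4:**
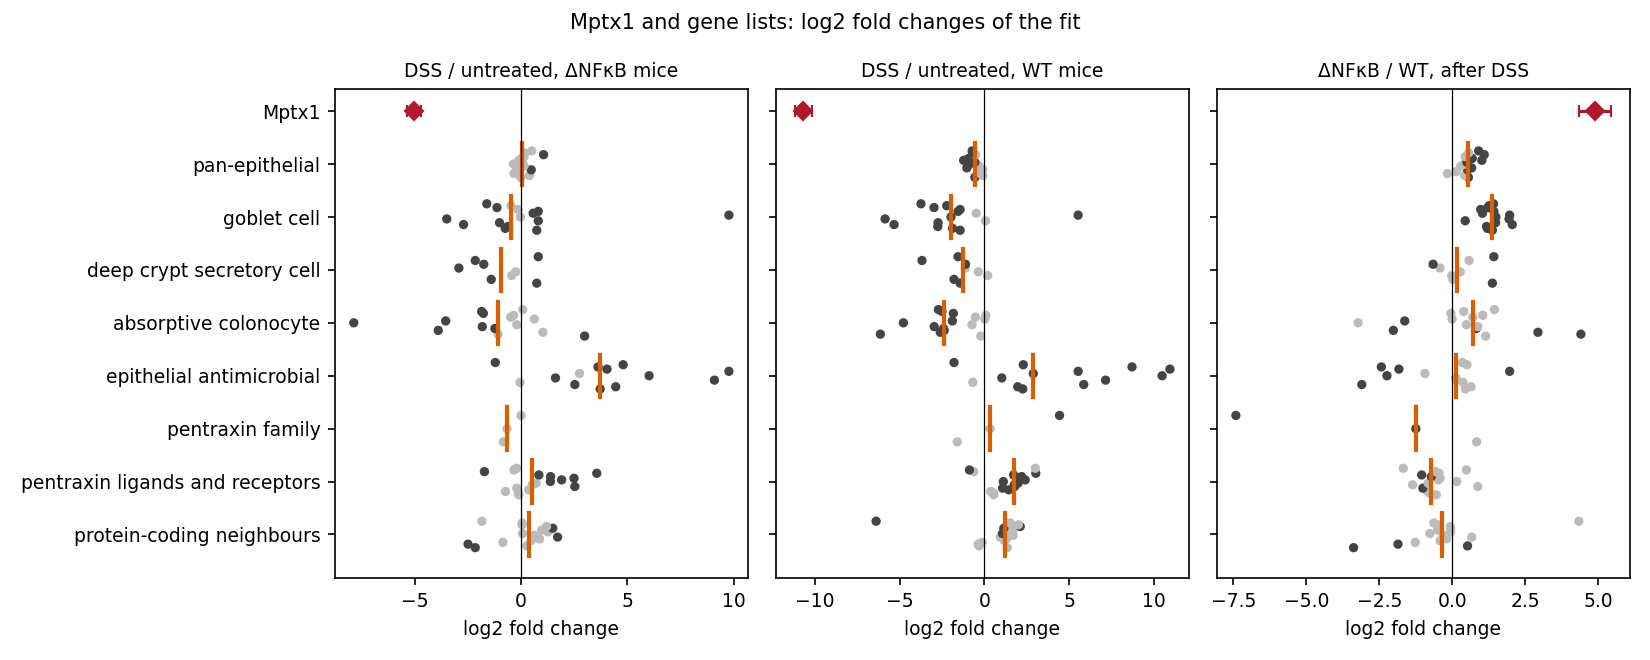
Log2 fold changes of Mptx1 (red, with SE) and of the fitted genes of each list, dark where adjusted p is below 0.05 and grey otherwise, with the list median in orange; the panels show DSS in ΔNFκB mice, DSS in WT mice, and ΔNFκB against WT after DSS. Mptx1 stands at -5.02, -10.69 and 4.89, and values of genes with 0 reads in a group, such as Ptx3, depend on the prior of the fit.

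Genes near Mptx1 and Mptx2 on chromosome 1 were measured in the same fit. Within 500 kb of either gene lie 39 other protein-coding genes, 19 of them olfactory receptors, and 16 passed the filter. They include interferon-inducible Ifi genes. With DSS 2 were higher and 2 lower in ΔNFκB mice and 3 were higher and 1 lower in WT mice, against 35.4% and 36.1% of all genes called. Between the genotypes after DSS, 1 of the 16 was called higher and 2 lower, about the 20% called over all genes. Ifi211 rose by 1.49 ± 0.36 in ΔNFκB mice and by 1.15 ± 0.35 in WT mice (adjusted p 0.0148 and 0.0342). The call in ΔNFκB mice was lost without ΔNFκB DSS replicate 2 (0.111) or either untreated ΔNFκB mouse (0.0567 and 0.0655) or with a sex term (0.0661). That in WT mice was lost without any of the 4 WT libraries (0.0559 to 0.156), with a sex term (0.0581) or with DESeq2 (0.0766). After DSS 1 was higher in ΔNFκB than in WT mice, the DNA sensor gene Aim2 (0.52 ± 0.11, adjusted p 0.0186, or 0.168, 0.0623 and 0.124 if ΔNFκB DSS replicate 2, WT DSS replicate 1 or WT DSS replicate 2 was dropped), and 2 were lower, Cadm3 (-1.86 ± 0.29, adjusted p 0.00539) and Ackr1 (-3.38 ± 0.58, adjusted p 0.00758), 0.0536 and 0.078 without ΔNFκB DSS replicate 2; Ackr1 stood at -4.07 without ΔNFκB DSS replicate 1.

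Of the 6 genes whose pattern over the 8 libraries was most like that of Mptx1, the 5 given here ranked 2 to 6 and were Klk1, Nxpe2, Sycn, Gal3st2c and Shisa2. Likeness was the root mean square difference of log2 CPM, each gene centred on its own mean, over 12390 genes, and over these 5 ran from 1.77 for Klk1 to 2.01 for Shisa2, where Mptx1 itself spread by 4.17 around its mean. All 8 points come from the same libraries as the Mptx1 values, so this is a description. Sycn, which encodes a zymogen granule protein in pancreas, had 17.6 and 11.8 CPM in ΔNFκB DSS mice, 11.9 and 6.4 in WT DSS mice, 261 and 419 in untreated ΔNFκB mice and 373 and 234 in untreated WT mice. None of the 5 reached the fold of Mptx1: their log2 fold changes with DSS were -4.53 to -2.27 in ΔNFκB mice and -5.86 to -5.06 in WT mice, and 0.69 to 3.17 between the genotypes after DSS. For Mptx2 no such list is given, because its reads are too few.

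**Figure D5:**
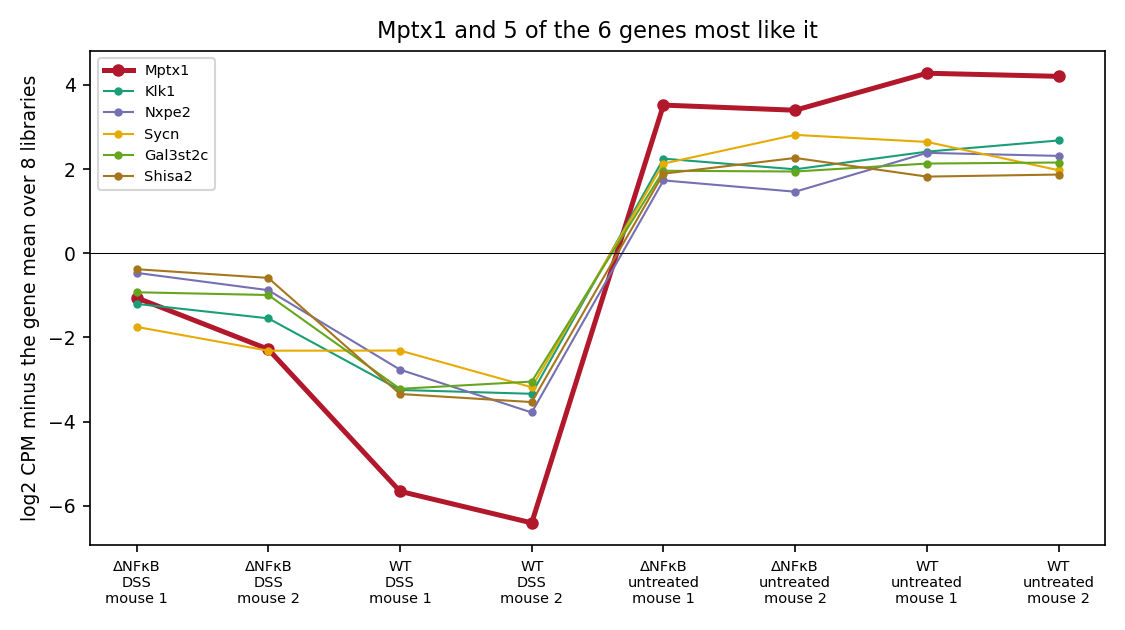
Log2 CPM of Mptx1 and 5 of the 6 genes most like it, each minus its own mean over the 8 libraries, with the ΔNFκB DSS, WT DSS, untreated ΔNFκB and untreated WT mice left to right. Mptx1 is lowest in WT DSS mice, and in all 5 other genes the 4 DSS mice lie below the 4 untreated mice, with a smaller range than in Mptx1.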

How the data were processed

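Total RNA of distal colon was sequenced per the labels' protocols with the TruSeq Total RNA kit in paired reads of 150 bases. HISAT2 2.1, SAMtools 1.8, featureCounts and Subread 1.6.2 on mm10 are named per the submitters' processing notes; no source used here gives the annotation, the strand setting or the handling of multiply matching reads. The authors' deposited tables, by symbol and by Ensembl identifier, hold expected counts without normalization, as 18.8% of values above 0 have a fractional part. Lines sharing a symbol were summed and values rounded.

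Genes passing filterByExpr (17522 of 30454 with a count) were fitted with TMM factors (0.882 to 1.15), 1 coefficient for each of the 4 groups, all 8 libraries and 4 residual degrees of freedom in edgeR 4.0.16 (quasi-likelihood, R 4.3.3); p-values are two-sided and adjusted by Benjamini-Hochberg over all genes, with 0.05 as threshold. SE is the absolute log2 fold change over the square root of F. With 2 mice a group the smallest exact permutation p is 0.333, so none is given. The genotype test of Mptx1 after DSS was fitted, but its p is not printed because the DSS values chose the gene. The labels do not say whether the mice are littermates, so p-values measure the spread between these samples.

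Mptx1 and Mptx2, the gene lists and the comparisons were chosen with earlier results of these data known. Besides both members, named genes were all pentraxins and neighbours with a count, up to 3 members of smallest p per list and comparison, and the 6 genes most like Mptx1 with mean log2 CPM above 1 (a few items are not reported here); a few other members (such as Epcam, Reg4, Retnlb, Lcn2 and C1qa) were named as markers after their values were seen. Counting intervals (95%, exact) and the floor of 3 reads cover counting error only, since reads without molecular identifiers are not independent molecules. Gene models and transcripts are GENCODE on GRCm38, promoters RefSeq on GRCm38.p6. Same-numbered libraries of different groups deviated with correlations of -0.126 to 0.244. No label used here states a pairing, and mice were treated as unpaired. These correlations cannot exclude a shared litter, cage or batch. Alternatives were other scalings and filters, DESeq2 1.42.0, limma-voom (limma 3.58.1), unrounded values, the Ensembl table, a replicate block, a sex term, only the groups compared and each library left out. Untreated WT was the only group with both sexes, so its mice alone set the sex term.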

Additional observations from a re-analysis of the deposited data

How the results depend on the processing

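Mptx1 kept its direction in all 5 comparisons under every alternative run. Its genotype difference after DSS is a description because those DSS values chose the gene. It ran from 4.15 to 5.5 with 1 library left out and from 4.73 to 4.91 over the other planned settings. Scaled to the pan-epithelial list it was 4.33 and scaled to the goblet list 3.4, where the medians of all genes stood at -0.55 and -1.45. The fall in WT mice ran from -11.3 to -10.25 with 1 library left out and was -10.05 scaled to the pan-epithelial list and -8.08 scaled to the goblet list, against shifts in the median of all genes of 0.66 and 2.65; the difference of the DSS effects was 3.77 on the goblet scale, where that median stood at -1.94. Mptx2 had no fitted value with the count filter. Without a filter the edgeR log2 fold changes with DSS were -5.41 in WT mice (adjusted p 0.0394) and -1.74 in ΔNFκB mice (0.55). They were -1.14 between untreated genotypes (0.827), 2.53 after DSS (0.645) and 3.67 for the difference (0.519). The log2 ratio of summed reads with DSS was -1.63 in WT mice, with 0 reads set to the floor of 3. It was -1.96 in ΔNFκB mice (1 read against 5), and between untreated genotypes it was -1.13. With 0 to 6.5 reads per library the fitted values depend on the prior.

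Among all genes, 6199 passed with DSS in ΔNFκB mice and 3343 did with a sex term. That term rests on untreated WT replicate 1 (female) against replicate 2 (male) alone. Between untreated genotypes 68 passed, against 264 with DESeq2, 330 without a count filter, 176 with a sex term, 0 with only the groups compared and 0 with a replicate block; the block gave Mptx1 a genotype difference after DSS of 4.85. With 1 library left out, whose group is then 1 mouse assumed to vary like the others, the counts ran from 3373 to 6549 with DSS in ΔNFκB mice, 3299 to 6228 with DSS in WT mice, 0 to 200 between untreated genotypes, 484 to 3782 between genotypes after DSS, 489 to 3669 for the difference of DSS effects. Of 2201 alternative values of 116 called values of named genes, 142 fell short of the threshold and 0 changed sign. The cause of these changes was not tested. Depth limits Mptx2 everywhere and Mptx1 in WT DSS mice, where it rests on 9 reads.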
